A study of Arabidopsis thaliana with 8 samples.

Results

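The auxin response factors (ARFs) and the Aux/IAA proteins are the transcriptional core of auxin signalling in Arabidopsis thaliana, and their genes were examined here for binding by URI. Members were all protein-coding genes whose symbol or synonym in the TAIR10.1 RefSeq gene table is ARF or IAA with a number, which includes PAP1 (IAA26) and leaves out ADP-ribosylation factors. They were 52 of 27444 protein-coding genes, namely 23 ARF and 29 Aux/IAA genes. URI, or bHLH121, belongs to the basic helix-loop-helix factors and acts in the response to low iron (Fe). Chromatin immunoprecipitation followed by sequencing (ChIP-seq) located it in roots of a complemented uri mutant line, so both groups carry the same mutation and transgene. Roots stood for 72 h in Fe-sufficient or in Fe-deficient conditions, each with 3 libraries of URI ChIP and 1 of an IgG control. The sources used here do not give the promoter and tag of the transgene, the age of the plants or the number of lines.

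ARFs are DNA-binding proteins that act on auxin-responsive genes. Class A ARFs activate transcription, while classes B and C are mostly described as repressors. At low auxin, Aux/IAA proteins bind ARFs and bring the co-repressor TOPLESS (TPL). Auxin joins an Aux/IAA protein to the F-box receptors of the TIR1/AFB family, through a short degron in the Aux/IAA protein, and this leads to its degradation and frees the ARF. In roots this pathway sets lateral root formation, gravitropism and root hair growth.

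The authors' deposited table lists 2366 URI peaks, each with a mean concentration for either Fe condition, a change on the log2 scale, and a p-value with its false discovery rate (FDR). A concentration is read here as a log2 value of normalised reads, and the text gives it back as reads. Values per library are not part of the table, so neither the spread between libraries nor their depth can be shown, and the error behind each change is its deposited p-value. Whether the 3 libraries of one condition are separate plantings is not stated in the labels, so these p-values may measure technical spread only. Changes are Fe deficiency minus Fe sufficiency. The median change of all 2366 peaks was -0.46, so each change is also given relative to this median peak where its sign turns. The FDR was adjusted in the table over 1311 peaks and set to 1 for the other 1055, whose mean concentration was at most 3.52 (11.5 reads).

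A peak lay within 1500 bp of 13 of the 52 genes (25.0%), against 11.8% of all protein-coding genes. Bound members were spread over both families, with 6 of 23 ARF genes and 7 of 29 Aux/IAA genes. Within the ARF family, 2 of 5 class A genes (ARF6 and ARF19), 3 of 15 class B genes (ARF2, ARF11 and ARF18) and 1 of 3 class C genes (ARF16) had a peak. Among the Aux/IAA genes, 7 of 23 with a canonical degron had one (IAA2, IAA9, IAA11, IAA14, IAA16, IAA18 and IAA26). None of the 6 genes whose protein lacks the degron or has an altered one (IAA20, IAA30, IAA31, IAA32, IAA33 and IAA34) had a peak. The shares of these classes were not tested against each other. Bound members had a median length of 3137 bp, against 2416 bp for members without a peak and 2078 bp for all protein-coding genes. The part of gene length in these shares was not tested.

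**Figure D1:**
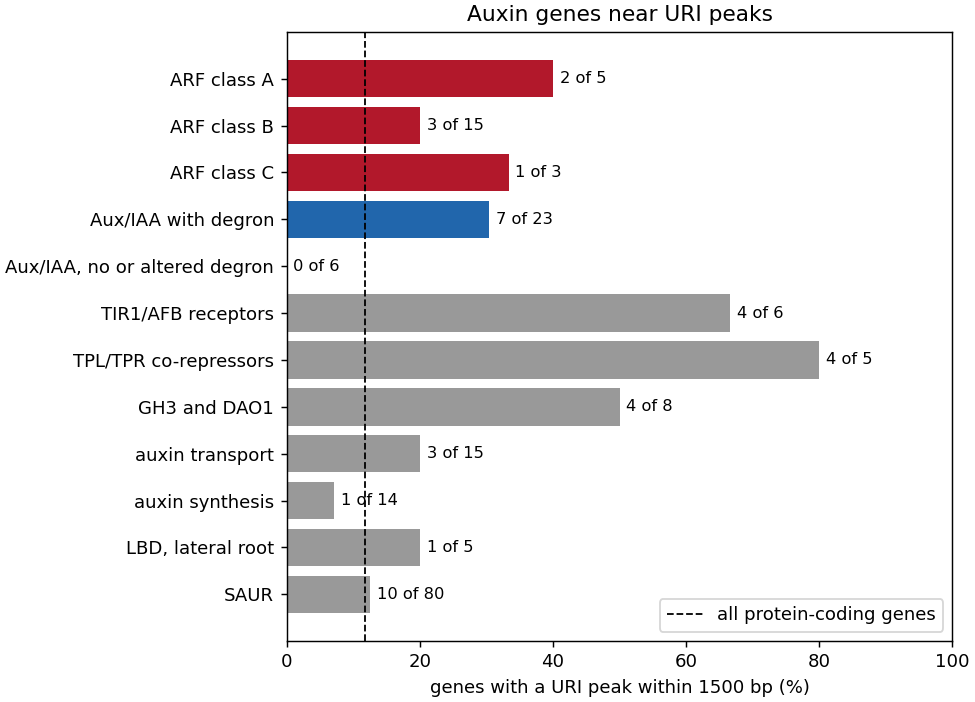
Share of genes (%, x axis) with a URI peak within 1500 bp, for the ARF classes (red), the Aux/IAA groups (blue) and other auxin genes (grey), with counts beside the bars and the share over all protein-coding genes as a dashed line. TPL/TPR co-repressors (4 of 5) and TIR1/AFB receptors (4 of 6) had the highest shares, and 7 of 23 Aux/IAA genes with a degron had a peak.

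The 39 members without a peak included some of the best known. They were ARF1, ARF3, ARF4, ARF5, ARF7, ARF8, ARF9, ARF10, ARF12 to ARF15, ARF17, ARF20 to ARF23, IAA1, IAA3 to IAA8, IAA10, IAA12, IAA13, IAA15, IAA17, IAA19, IAA27 to IAA29 and the 6 without a canonical degron. ARF5 (MONOPTEROS) patterns the embryo and ARF7 acts with ARF19 in lateral root formation. The group ARF12 to ARF15 and ARF20 to ARF23 holds 8 closely related class B genes on chromosome 1, none of which had a peak. Their values are uncertain, because closely related copies can share reads and the sources used here do not say how such reads were treated. Their sequences were not compared here. Outside this group, 6 of 15 ARF genes (40.0%) had a peak, against 26.1% of all 23. The share over all protein-coding genes was 11.8%. Leaving out genes without a peak can only raise a share. The window left no borderline member, since the nearest peak of every bound gene was at most 509 bp away (ARF6), while the closest member outside it, ARF9, lay 3131 bp from a peak and the next, ARF14, 3719 bp.

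Several closely related genes differed in having a peak. ARF19 had a peak and its near relative ARF7 none. The same held for ARF6 against ARF8, 2 partly redundant activators of flower maturation, for ARF16 against ARF10, which act together in the root cap, and for IAA9 against IAA8. Neighbouring genes differed as well, with a peak at IAA2 and none at the adjacent family member IAA7, and a peak at IAA14 and none at IAA1. The neighbours IAA3 and IAA17 both had none. By contrast ARF11 and ARF18, which are close relatives, both had a peak within the window, as did IAA18 and IAA26. The ARF18 peak was nearest to another gene, and those of ARF11 and ARF19 were weak and outside the FDR adjustment. These pairs were named after the values were seen, and no difference between relatives was tested. No peak was shared by 2 members.

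The 13 bound genes had 17 peaks. ARF2 had 3, ARF16 and IAA16 had 2 each, and the other 10 genes had 1. Having several peaks applied to 3 of 13 bound members (23.1%), against 11.7% of all bound protein-coding genes. At ARF2 and IAA16, however, only 1 peak each had the member as its nearest gene, while both ARF16 peaks did. The difference in share was not tested. Of the 17 peaks, 9 overlapped their gene and 8 lay beside it, but only those of IAA2 and IAA18 had their midpoint inside the gene. The gene table used here gives no strand, so gene starts and gene ends are not told apart. For 12 peaks the member was the nearest protein-coding gene to the midpoint, and for 5 another gene was nearer.

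**Figure D2:**
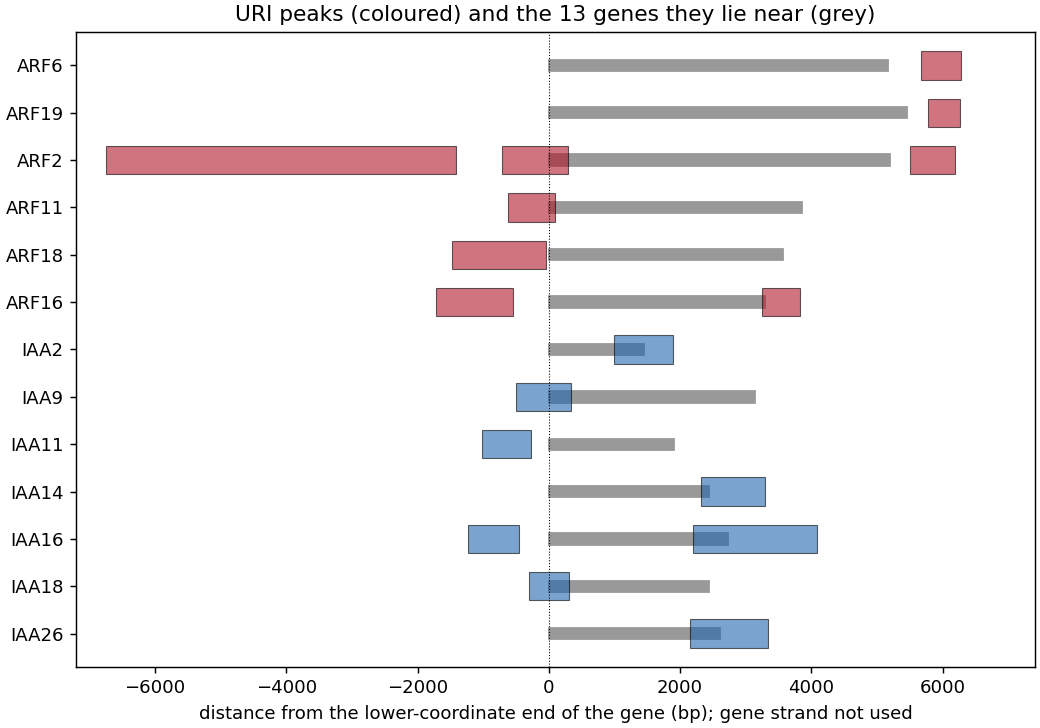
Position of the 17 URI peaks (coloured boxes, ARF red and Aux/IAA blue) on the 13 genes (grey bars), in bp from the lower-coordinate end of each gene, to scale and without regard to strand. Most peaks sit across or just outside a gene end, and ARF2, ARF16 and IAA16 have peaks on both sides.

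Member peaks were of middling strength apart from a few. Their median concentration was 4.01 (16.1 reads), against 3.61 (12.2 reads) over all 2366 peaks, and 10 of the 17 lay above that median. Member peaks were also somewhat wider, with a median of 838 bp against 734 bp. Per kb of peak, the median was 18.0 reads against 16.6 over all peaks, and 9 of the 17 lay above the latter. Ordered by reads per kb, the densest member peaks were IAA11 (25.6), IAA2 (22.5), IAA9 (21.3) and the stronger IAA16 peak (20.5), and the least dense was ARF11, which ranked 2224 of 2366. Without values per library it cannot be said which neighbours in this order differ beyond their spread.

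Among the class A activators, the ARF6 peak (AT1G30330, chromosome 1, 10691497 to 10692100) lay beside the gene. Its mean over the libraries of a condition was 12.9 reads under Fe sufficiency and 10.8 under Fe deficiency. In the authors' deposited table its change was -0.26 (p = 0.540, FDR 0.671), and relative to the median peak the sign turned to 0.20. ARF19 (AT1G19220), an activator of lateral root genes, had a weak peak beside it (chromosome 1, 6633461 to 6633943), ranked 1836 of 2366 by concentration. Its mean was 12.7 reads under Fe sufficiency and 4.72 under Fe deficiency. The change of -1.43 had p = 0.0216 in the authors' deposited table, where its FDR was set to 1. It was the lowest value of all member peaks, and 25 of the 2366 peaks, itself included, had a change at or below it. Over all peaks, the deposited p-value of ARF19 had an FDR of 0.329. Relative to the median peak the change was -0.97, and with the error implied by that p-value its FDR over all peaks was 0.995.

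ARF2, a class B repressor that limits organ and seed growth, had the strongest peak of all members. This peak (AT5G62000, chromosome 5, 24903442 to 24908784) is 5342 bp wide and ranked 9 of 2366 by concentration, at 6.74. Per kb, however, it held 20.0 reads and ranked 388. It lay 1407 bp from ARF2, overlapped AT5G61997 and was nearest to that gene, so it cannot be given to ARF2 alone. Its mean was 121 reads under Fe sufficiency and 92.4 under Fe deficiency, a change of -0.38 in the authors' deposited table (p = 0.169, FDR 0.382) that became 0.08 relative to the median peak.

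The other ARF2 peaks were weaker and lay one on each side of the gene. The peak that overlaps one gene end (24909477 to 24910483) had 19.0 and 13.3 reads with sufficient and deficient Fe, and the authors' deposited table gives a change of -0.52 (p = 0.624, FDR 0.725). The standard error that this p-value implies, 1.06 on the log2 scale, exceeded that of 99 of the 100 peaks nearest in concentration, whose median was 0.43. Whether its change is less certain than theirs cannot be said, because this takes the printed change as the estimate behind the p-value. The peak on the far side (24915699 to 24916376) overlaps HSFB2A, a heat shock factor gene, and not ARF2, and had 11.6 and 8.0 reads (change -0.54 in the authors' deposited table, p = 0.295). All 3 changes near ARF2 thus lay between -0.54 and -0.38, close to the median peak.

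ARF11 and ARF18 belong to the same branch of class B. The ARF11 peak (AT2G46530, chromosome 2, 19104004 to 19104731) overlaps one end of the gene. It held 4.06 reads under Fe sufficiency and 13.5 under Fe deficiency, so it was the member with the highest positive value, at 3.32-fold. In the authors' deposited table the change was 1.73 with p = 0.0208, and the FDR was set to 1. The peak is weak, with a concentration of 3.13. Of the 2366 peaks, 31 had a change at least as high, itself included. Adjusted over all peaks, the FDR of this deposited p-value was 0.329. Relative to the median peak, the change was 2.19, and with the error implied by the deposited p-value its FDR over all peaks was 0.107, which does not pass 0.05 either. The ARF18 peak (AT3G61830, chromosome 3, 22886413 to 22887852) lay 37 bp from the gene, overlapped AT3G61826 and AT3G61829 and was nearest to the latter. Its mean was 21.9 reads under Fe sufficiency and 26.2 under Fe deficiency, and the authors' deposited table gives a change of 0.26 (p = 0.545, FDR 0.672). These were the only member peaks with a positive change.

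ARF16, a class C factor of the root cap whose transcript is a target of miR160, had a peak on each side. The stronger (AT4G30080, chromosome 4, 14701350 to 14702525) had 22.9 reads under Fe sufficiency and 19.3 under Fe deficiency. The weaker (14706316 to 14706889) overlaps the gene and had 7.67 and 7.16 reads. Their changes in the authors' deposited table were -0.25 (p = 0.515, FDR 0.653) and -0.11 (p = 0.781), and relative to the median peak these became 0.21 and 0.35.

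The strongest Aux/IAA peak lay at IAA16 (AT3G04730, chromosome 3, 1290349 to 1292242), whose stabilised mutant form dampens auxin responses. This peak overlaps the gene, ranked 89 of 2366 and had 41.6 reads under Fe sufficiency and 36.0 under Fe deficiency. The authors' deposited table gives a change of -0.21 (p = 0.696, FDR 0.779), which is 0.25 relative to the median peak. The standard error implied by its p-value, 0.54, was larger than that of 98 of the 100 peaks nearest in concentration. It comes from a change just beyond the 0.2 under which such errors were replaced, so nothing is concluded from this rank. The second IAA16 peak (1286919 to 1287705) overlaps no protein-coding gene and is nearest to PR4, a pathogenesis-related gene, with 13.3 and 10.5 reads. Its change was -0.34 in the authors' deposited table (p = 0.431, FDR 0.585) and 0.12 relative to the median peak.

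IAA14 (SOLITARY ROOT), whose stabilised form blocks lateral root initiation through ARF7 and ARF19, had a peak over one gene end (AT4G14550, chromosome 4, 8350137 to 8351116). It held 15.6 reads under Fe sufficiency and 10.2 under Fe deficiency, with a change of -0.61 in the authors' deposited table (p = 0.242, FDR 0.440). IAA18 (AT1G51950, chromosome 1, 19304773 to 19305393), which also restrains lateral roots when stabilised, had 13.2 and 9.92 reads. Its change of -0.40 in the authors' deposited table (p = 0.403, FDR 0.566) became 0.06 relative to the median peak. IAA2 (AT3G23030, chromosome 3, 8181634 to 8182533), an auxin-induced gene, had 21.6 and 19.0 reads and a change of -0.18 in the authors' deposited table (p = 0.599, FDR 0.709), or 0.28 relative to the median peak. These 3 peaks all overlap their gene.

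The IAA9 and IAA26 peaks had the lowest values of the Aux/IAA family. At IAA9 (AT5G65670, chromosome 5, 26252912 to 26253750) the mean was 22.5 reads under Fe sufficiency and 13.3 under Fe deficiency. The change was -0.76 in the authors' deposited table (p = 0.0790, FDR 0.326). IAA26 (AT3G16500, chromosome 3, 5614360 to 5615542), first described as the phytochrome-associated protein PAP1, had 23.6 and 14.4 reads and a change of -0.72 in the authors' deposited table (p = 0.109, FDR 0.350). Relative to the median peak these values were -0.30 and -0.26, within the implied standard errors of 0.43 and 0.45. The IAA11 peak (AT4G28640, chromosome 4, 14141042 to 14141790) overlaps ABCB23 (ATM1), a mitochondrial ABC transporter gene, and lay 273 bp from IAA11. It was almost level between conditions, with 19.7 and 18.5 reads, and the authors' deposited table gives a change of -0.10 (p = 0.806, FDR 0.861), which is 0.36 relative to the median peak.

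**Figure D3:**
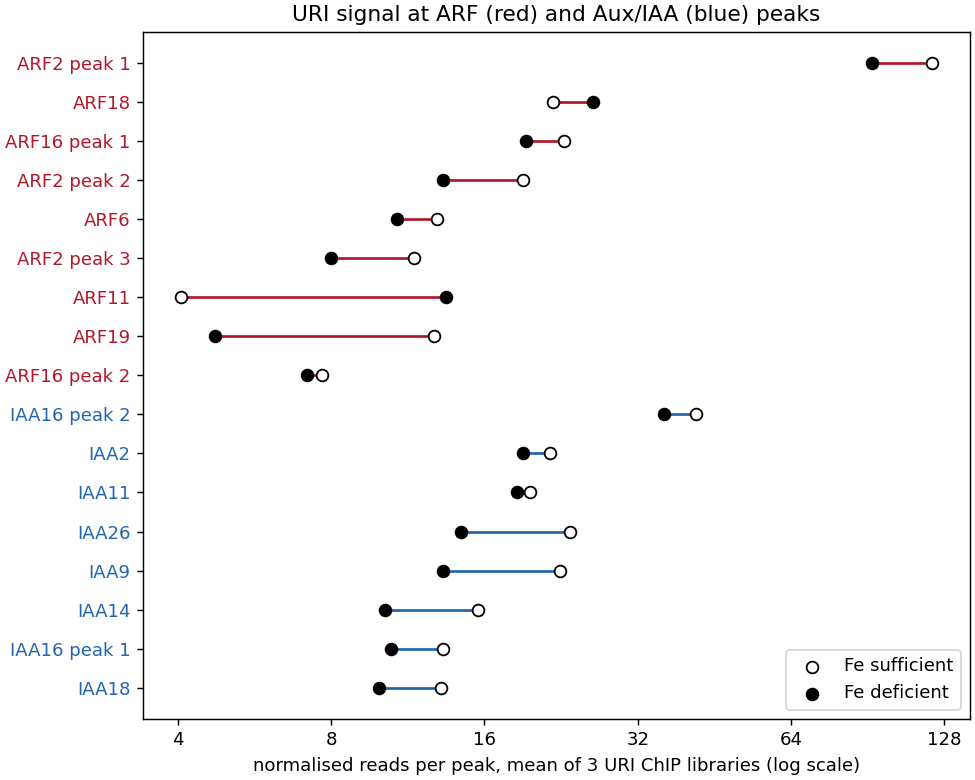
Normalised reads (x axis, log scale) at each of the 17 member peaks with sufficient Fe (open circles) and deficient Fe (filled circles), as the authors' mean over the 3 URI libraries of each condition, without error bars because no value per library is in the table. ARF11 (4.06 to 13.5) and ARF19 (12.7 to 4.72) have the widest gaps, in opposite directions, and the first ARF2 peak stands apart at 121 and 92.4 reads.

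Between the Fe conditions, 0 member peaks had an FDR under 0.05, while 27 of 1311 adjusted peaks in the authors' deposited table did (2.06%), 26 of them higher under deficiency (1.98%) and 1 lower (0.0763%). At an FDR under 0.1 the count was 40 of 1311 (3.05%), with 0 member peaks. Of the 17 member peaks, 13 were in that adjustment, and their smallest FDR was 0.326 (IAA9). The other 4 were those of ARF19, ARF11, the HSFB2A side of ARF2 and the weaker ARF16 peak. Before adjustment, 2 of 17 (11.8%) had p under 0.05 in the authors' deposited table, ARF11 and ARF19, against 13.6% of all peaks. Relative to the median peak, an FDR under 0.05 was reached by 63 of 1311 peaks that were higher (4.81%) and by 0 lower ones (0%), and 0 member peaks were among them. With so few peaks called over the table, a count of 0 among 13 is not a result about these genes. These values do not show that URI binding at these genes was the same under both conditions: the implied standard errors ran from 0.28 to 1.06, with a median of 0.45.

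By direction, 15 of the 17 member peaks (88.2%) had a negative change, against 79.8% of all peaks. Their median change was -0.34 and that of all peaks -0.46. Relative to the median peak the picture turned, with 11 values above 0 and 6 below and a median of 0.12. The 8 Aux/IAA peaks lay between -0.76 and -0.10. The 9 ARF peaks ran from -1.43 to 1.73, and both extremes were weak peaks, with concentrations of 3.12 and 3.13. Among the 13 adjusted member peaks, changes ran from -0.76 to 0.26.

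**Figure D4:**
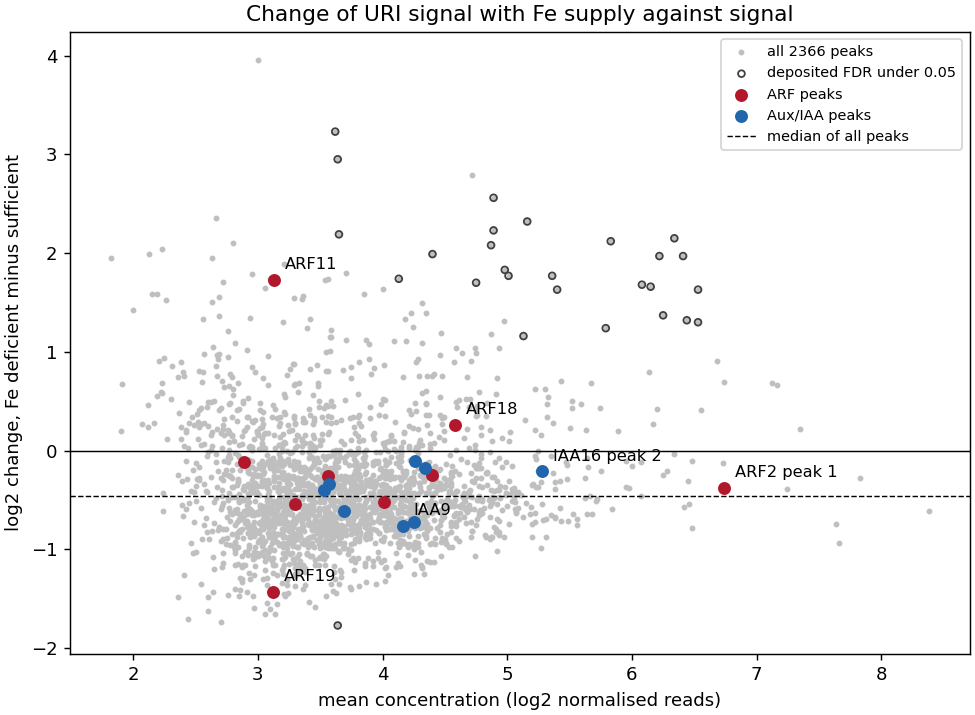
Log2 change (Fe deficient minus sufficient, y axis) against mean concentration (log2 normalised reads, x axis) for all 2366 peaks (grey), those with a deposited FDR under 0.05 (ringed), and the ARF (red) and Aux/IAA (blue) peaks. Most member peaks lie close to the dashed line at the median of all peaks, -0.46, and none is ringed; ARF11 at 1.73 and ARF19 at -1.43 are at the weak end.

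For the receptors and co-repressors that work with these proteins, 8 of 11 genes (72.7%) had a peak, against 11.8% of all protein-coding genes. These 11 genes had a median length of 3566 bp, against 2078 bp over all protein-coding genes. The part of gene length in this share was not tested. Peaks lay near 4 of 6 auxin receptor genes (TIR1, AFB2, AFB3 and AFB4, with none at AFB1 or AFB5). They also lay near 4 of 5 co-repressor genes (TPL, TPR2, TPR3 and TPR4, with none at TPR1). TIR1, the founding auxin receptor, had adjacent peaks at one side. The peak that overlaps it (AT3G62980, chromosome 3, 23276378 to 23277612) had 21.9 reads under Fe sufficiency and 15.7 under Fe deficiency, and the other (23277673 to 23278697) 23.6 and 17.6. Changes in the authors' deposited table were -0.47 (p = 0.240) and -0.43 (p = 0.244), the latter 0.03 relative to the median peak. AFB2 had a change of -0.88 in the authors' deposited table (p = 0.0660, FDR 0.317), AFB3 one of -0.77 (p = 0.136), and AFB4, whose peak is nearest to CIPK8, one of 0.01 (p = 0.920).

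TPL, the co-repressor recruited by Aux/IAA proteins, had the peak of highest concentration in its list (AT1G15750, chromosome 1, 5420859 to 5422408), with 30.7 reads under Fe sufficiency and 23.9 under Fe deficiency. Its change was -0.36 in the authors' deposited table (p = 0.341, FDR 0.519) and 0.10 relative to the median peak. The authors' deposited table gives -0.70 for TPR2 (p = 0.0938, FDR 0.339), -0.06 for TPR3 (p = 0.825) and 0.42 for TPR4 (p = 0.608), of which TPR3 turned to 0.40 relative to the median peak. Of the 9 peaks of these lists, 6 were in the FDR adjustment of the authors' deposited table and 0 had an FDR under 0.05, against 2.06% of all adjusted peaks, so the count is not a result about these lists. The peaks of AFB3, TPR3 and TPR4 had their FDR set to 1 there.

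Among enzymes that inactivate auxin, the share was intermediate. Of 8 inactivation genes, 4 (50.0%, against 11.8% of all protein-coding genes) had a peak. They were GH3.2, GH3.3, GH3.5 and GH3.17, which encode enzymes joining auxin to amino acids. GH3.17 had the strongest (chromosome 1, 9824088 to 9825344), with 32.7 and 22.9 reads and a change of -0.51 in the authors' deposited table (p = 0.128, FDR 0.365). Changes at the other GH3 peaks in the authors' deposited table ran from -0.68 at GH3.2 (p = 0.152) to 0.15 at GH3.5 (p = 0.794).

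In transport, 3 of 15 genes (20.0%, against 11.8% of all protein-coding genes) had a peak: LAX2, ABCB1 and ABCB4, but not AUX1. The LAX2 peak lay 1326 bp from its gene and was nearest to GRP2B, and the ABCB1 peak lay 1411 bp away. ABCB4, a root auxin transporter, had 39.1 reads under Fe sufficiency and 22.2 under Fe deficiency (chromosome 2, 19315079 to 19316820). That change, -0.82, had p = 0.0284 (FDR 0.247) in the authors' deposited table. Measured from the median change of all peaks, the ABCB4 value was -0.36, within its implied standard error of 0.37. The weaker LAX2 and ABCB1 peaks had -0.25 (p = 0.585) and -0.78 (p = 0.164) in the authors' deposited table, and the former was 0.21 relative to the median peak.

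Of 14 synthesis genes only YUC9 had a peak (7.14%, against 11.8% of all protein-coding genes). Its change was 0.08 in the authors' deposited table (p = 0.957). Of 5 LBD genes of lateral root formation, LBD17 had a peak (20.0%, against the same 11.8%). Its change was -0.22 in the authors' deposited table (p = 0.621), or 0.24 relative to the median peak. SAUR genes, a large family of small auxin-induced genes, were near peaks at about the background share (10 of 80, 12.5%). This list was taken by symbol and holds AT5G01830, named SAUR21 in the gene table, whose place in the family is doubtful. Without it the share was 9 of 79 (11.4%). AT4G38840 and SAUR15 were counted through the same peak. The peaks of AT1G16510, AT4G34750, AT4G38840 and AT5G10990 were nearest to another gene. The strongest SAUR peak, at SAUR59 (AT3G60690), had 69.1 reads under Fe sufficiency and 45.9 under Fe deficiency, with a change of -0.59 in the authors' deposited table (p = 0.0418, FDR 0.268). Measured from the median change of all peaks, the SAUR59 value was -0.13, within its implied standard error of 0.29. Of the 22 peaks near the inactivation, transport, synthesis, LBD and SAUR genes, 12 were in the FDR adjustment of the authors' deposited table, among them none of YUC9 or LBD17. With 2.06% of all adjusted peaks called, the count of 0 with an FDR under 0.05 is not a result about these lists. The differences in share between lists were not tested. Median gene length also differed between the lists, from 815 bp for SAUR genes to 6336 bp for co-repressor genes. Its part in the shares was not tested.

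Beside other transcription factor families, the share of ARF and Aux/IAA genes with a peak was neither the highest nor the lowest. It was 25.0%, against 47.9% of 71 WRKY genes, 22.2% of 99 NAC genes, 19.2% of 26 ERF genes and 13.6% of 125 MYB genes, found by symbol or synonym in the same gene table. Their median changes in the authors' deposited table were, in the same order, -0.57, -0.38, -0.52 and -0.34. No test of these differences was made.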

How the data were processed

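The submitters' processing notes name, for the TAIR10 build, DiffBind, MACS2, Trimmomatic 0.33, Picard 2.4.1, Bowtie 1.2.2, bedtools 2.26.0 and SAMtools 1.3.1. The sources used here do not give the settings, the normalisation, the role of the IgG controls or the pooling of libraries for peak calling. The authors deposited 1 table of peaks with concentrations and a fold, read here as log2 values, and a p-value and FDR per peak. Within 0.01 the fold is the sufficient minus the deficient concentration, and its sign was reversed. A Benjamini-Hochberg adjustment of the p-values over 1311 peaks gives the deposited FDR within 0.489%. Peak coordinates are printed as deposited, without a stated first base (0 or 1).

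Gene names and neighbours came from the NCBI RefSeq table (TAIR10.1). All 52 members were found, 45 by symbol and 7 by synonym, and the homonyms AT1G23490, AT2G24765, AT1G56650 and AT2G01180 were left out. A gene, widened by 1500 bp on both sides, had to overlap a peak by at least 1 bp. Calls used the deposited FDR (threshold 0.05). For values relative to the median peak, a standard error was derived from each deposited p-value and change (normal approximation), or, for changes under 0.2, taken as the median of the 100 peaks closest in concentration. Whether the normal approximation holds for the deposited p-values, and whether they rest on the printed change, was not tested. Python 3.11.15, pandas 2.3.3 and SciPy 1.17.1 were used. The genes to name were all members, all other pathway genes with a peak except SAUR genes, and genes nearest to or overlapped by a member peak. Members and lists were chosen with earlier results of these data known. The other genes named as having no peak, the pairs of related genes, the homonyms, CIPK8, GRP2B, AT3G60680 and the SAUR genes were named after their values were seen. The planned search for G-box and auxin response motifs needs sequence and was not run. Alternatives covered the window, the overlap, the FDR threshold, the adjustment and recentring.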

Additional observations from a re-analysis of the deposited data

How the results depend on the processing

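Windows of 1000 bp or 3000 bp, or the peak midpoint in place of an overlap, gave the same 13 bound members. The 1000 bp window and the midpoint rule each left 16 peaks, without the strongest ARF2 peak, which lay 1407 bp from the gene. The member peak of highest concentration was then that of IAA16, at 5.28. Giving each peak only to its nearest gene left 11 (without ARF18 and IAA11), and keeping only peaks in the deposited FDR adjustment left 11 (without ARF11 and ARF19). The count of changed member peaks was 0 at an FDR of 0.01, 0.05 or 0.1, adjusted over all peaks, recentred on the median peak, and in both other windows, while 2 had p under 0.05. Recentring with adjustment over all peaks, added after the data were seen, also gave 0. The median change of member peaks was -0.26 to -0.40 under the alternatives other than recentring, which turned it from -0.34 to 0.12. Recentring, which adds 0.46 to every change, also turned the sign at ARF6 (0.20), the strongest ARF2 peak (0.08), ARF16 (0.21 and 0.35), IAA2 (0.28), IAA11 (0.36), IAA16 (0.12 and 0.25) and IAA18 (0.06). No paired analysis was possible because the table holds group means and no value per library; for the same reason no library could be left out. Depth is unknown, so weak peaks such as those of ARF11 and ARF19 cannot be judged beyond their deposited p-values.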

Other observations

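Between 1500 bp and 3000 bp from a member lay 4 further peaks, each beside a gene that already had one. Near IAA9, a second peak (chromosome 5, 26250637 to 26251654) was as strong as the first, with 26.0 reads under Fe sufficiency and 14.4 under Fe deficiency, and the authors' deposited table gives a change of -0.85 (p = 0.0315, FDR 0.25). With the peak over the gene at -0.76, IAA9 thus had 2 separate peaks with similar values, which share libraries and are not independent replicates. The peak near IAA18 (chromosome 1, 19302901 to 19303397) had a change of -0.89 in the authors' deposited table (p = 0.120), those near ARF2 and ARF16 had -0.57 (p = 0.253) and -0.52 (p = 0.404). Relative to the median peak these 4 values were -0.39, -0.43, -0.11 and -0.06.

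Of the 4 genes that share a symbol with a member but belong to other families, AT2G01180, a phosphatidic acid phosphatase gene also named PAP1, had 1 peak within 1500 bp, and AT1G56650 (MYB75, also PAP1), AT1G23490 and AT2G24765 (ADP-ribosylation factors named ARF1 and ARF3) had none.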
